A study of Mus musculus with 4 samples.

Results

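The insulin-like growth factor (IGF) genes described here are 10 genes for the ligands, receptors and binding proteins of that system. They were chosen by symbol as all rows of the authors' deposited table named Igf1, Igf2, Igf1r, Igf2r, Igfbp2, Igfbp3, Igfbp4, Igfbp5, Igfbp6 or Igfbp7, which gave 18 of 40739 transcript rows and 10 of 25177 gene symbols. IGF1 and IGF2 are secreted peptides that bind the tyrosine kinase receptor IGF1R, which signals through the adapters of the IRS and SHC families to the PI3K and AKT pathway and to the MAP kinases. IGF2R, also the cation-independent mannose 6-phosphate receptor, takes up IGF2 and carries it to lysosomes, and the binding proteins hold the ligands outside the cell and set how much reaches the receptor. Mouse fibroblasts that lack IGF1R are known to grow slowly and to resist transformation by several oncogenes.

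The data are nuclear RNA-seq libraries from the mouse embryonic fibroblast line NIH-3T3, here with H2B-mCherry, the rtTA3G transactivator and a CDX2 transgene under the doxycycline-inducible TRE3G promoter, each stably expressed. CDX2 is a homeobox transcription factor of the intestinal epithelium and of the posterior embryo. A group of 2 libraries came from cells given doxycycline for 6 h, at 500 ng/ml by the extraction protocol, and a group of 2 from cells given solvent alone, with 500000 cells in each. Another field of the labels gives the same dose figure per microlitre. Both groups carry the transgene, and no group without it is among the samples, so an effect of doxycycline itself and one of CDX2 cannot be told apart. The labels do not say that replicates were separate cultures, and the spread behind the p-values may be technical. Fewer cells with a transcript cannot be told apart from less transcript per cell.

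The authors' deposited table gives 1 log2 fold change, mean level and p-value per transcript and no value per library, so levels are given by group and no spread between replicates can be shown. Levels are in CPM, counts over exons scaled to a common library size. Rows without reads share 1 value, which corresponds to a geometric mean of 45712476 effective counts per library. Genes with a geometric mean of at least 10 counts were tested (12355 genes), and a gene is called where the authors' deposited table has an adjusted p under 0.05. That holds for 24.7% of them in either direction, for 11.3% higher and for 13.4% lower. The induced gene Cdx2 differed 124-fold, higher with doxycycline (log2 fold change 6.95 ± 0.091, standard error, from the authors' deposited table). Its level was 4.96 CPM without and 612 CPM with doxycycline, so the group without doxycycline was not free of Cdx2 reads. Of 12 fibroblast markers 10 were tested, of which 6 fell and 1 rose, with Col1a1 at 2287 CPM without and 1903 CPM with doxycycline, while Fap is listed without reads. Of 28 markers of epithelial, endothelial, immune, muscle and fat cells, 8 had no reads, 15 lay under the floor of 10 counts and 1 of the 5 tested was called (Cdh1, lower), and their summed level was 10.0 CPM without and 8.77 CPM with doxycycline. Cdh5 held 4.19 and 3.57 CPM of these sums. The keratin gene Krt19, an epithelial marker under the floor with about 1.18 counts per library, went the other way, from the level of rows without reads to 0.128 CPM with doxycycline (adjusted p 2.07e-07 in the authors' deposited table).

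Of the 10 IGF genes, 6 had reads and were tested (Igf2, Igf1r, Igf2r, Igfbp4, Igfbp6 and Igfbp7), and 4 are listed without reads in any library (Igf1, Igfbp2, Igfbp3 and Igfbp5). Both receptor genes fell with doxycycline, Igf2r by 31.4% and Igf1r by 15.2%, in the authors' deposited table. The ligand gene Igf2 and the 3 tested binding protein genes were not called. That is 2 lower and 0 higher of 6, beside 13.4% lower and 11.3% higher over all genes tested. By limma's unadjusted p Igfbp4 was under 0.05 too (0.0121), a looser threshold than that of these shares. The median log2 fold change was -0.11 over the 6 genes and -0.0011 over all genes tested.

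Igf1r, the signalling receptor of both ligands (NM_010513, mm10 chromosome 7, 67952257 to 68233667, plus strand, protein coding), had a level of 214 CPM in cells without doxycycline and 181 CPM in cells with it. Its mean of 197 CPM over the libraries lay above that of 97.1% of the genes tested, on a scale that grows with transcript length. Per kilobase of exon, Igf1r lay above 78.0% of them. The mean count was about 9006 per library. The log2 fold change of Igf1r in the authors' deposited table was -0.24 ± 0.062 (standard error), with an adjusted p of 0.00154 and a 95% interval of -22.0% to -7.72% for the change. Among all genes tested, 14.9% had a lower fold change. At this level the running median of the fold change over genes was -0.073, and with that trend removed the value was -0.16 with an adjusted p of 0.0511, so the call was lost.

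Igf2r, the receptor that clears IGF2 (NM_010515, chromosome 17, 12682406 to 12769706, minus strand, protein coding), stood at 7.56 CPM without and 5.19 CPM with doxycycline, on a mean of about 286 counts per library. Its log2 fold change in the authors' deposited table was -0.54 ± 0.10 (standard error; adjusted p 1.14e-06), and the 95% interval of the change was -40.1% to -21.5%. Of all genes tested, 4.21% had a lower fold change. Both receptor calls rest on standard errors that follow a gene's level closely, being 0.999 times (Igf1r) and 0.956 times (Igf2r) the running median over genes of like level. With all standard errors widened by a factor of 2.08, which is the median-based SD of t among tested genes and so holds real changes too, the adjusted p was 0.194 for Igf2r and 0.750 for Igf1r, and 0 of the 6 genes were called.

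**Figure D1:**
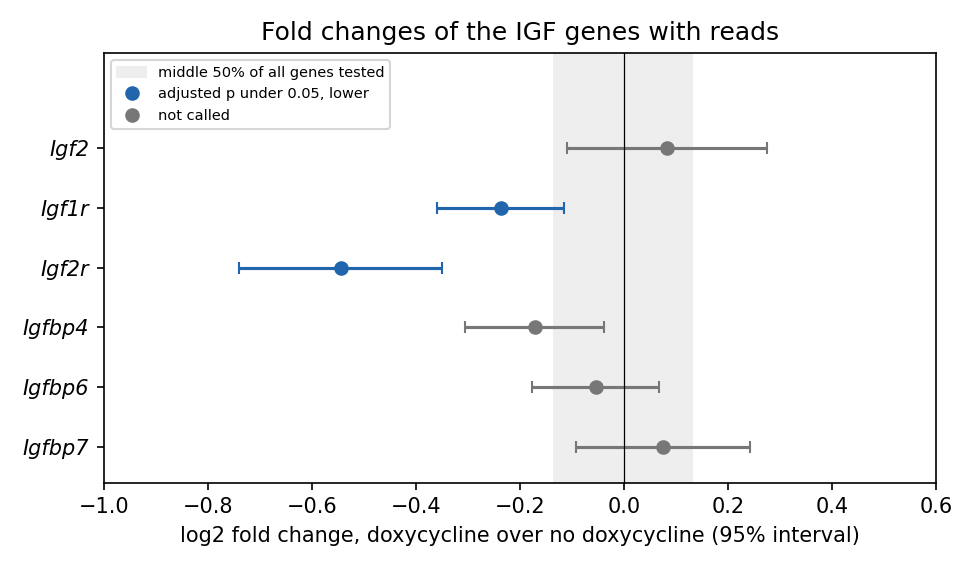
Log2 fold change of each IGF gene with reads, doxycycline over no doxycycline (x axis, points, with 95% intervals as bars), by gene (y axis). Igf1r and Igf2r (blue) lie left of 0, at -0.24 and -0.54, and Igf2, Igfbp4, Igfbp6 and Igfbp7 (grey) were not called; the grey band spans the quartiles of all genes tested, -0.13 to 0.13.

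The sequences before the start sites of both receptor genes are shown because these are the members that fell together. Those of Igf2 and Igfbp6 are examples of windows with CDX core letters in genes that were not called. The Igf2 window lies at the start of its row with the highest level. The windows were thus picked by call and by letters, and the contrast between them is no test. Whether CDX2 binds in these windows or elsewhere was not tested. Each run is the 250 bases before the start site in RefSeq's annotation of GRCm38.p6, read 5′ to 3′ on the strand of the gene. GENCODE M21 starts Igf1r at 67952827, Igf2r at 12769664 and Igfbp6 at 102144362, each downstream of the RefSeq site. The windows and distances given here hold for the RefSeq sites only. Capitals mark TTTAT and TTTAC, core letters of sites known for CDX proteins, and GGGCGG, the GC box bound by SP1, each on either strand, so that a match on the other strand reads as its reverse complement. Reversed, the letters TTTAT can also be part of a TATA box.

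Igf1r, chr7:67952007-67952256, plus strand: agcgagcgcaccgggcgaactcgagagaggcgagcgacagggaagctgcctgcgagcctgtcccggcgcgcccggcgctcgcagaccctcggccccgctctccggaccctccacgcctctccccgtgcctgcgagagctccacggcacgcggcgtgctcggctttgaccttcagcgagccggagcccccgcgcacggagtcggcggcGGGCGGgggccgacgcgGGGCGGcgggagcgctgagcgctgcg
Igf2r, chr17:12769707-12769956, minus strand: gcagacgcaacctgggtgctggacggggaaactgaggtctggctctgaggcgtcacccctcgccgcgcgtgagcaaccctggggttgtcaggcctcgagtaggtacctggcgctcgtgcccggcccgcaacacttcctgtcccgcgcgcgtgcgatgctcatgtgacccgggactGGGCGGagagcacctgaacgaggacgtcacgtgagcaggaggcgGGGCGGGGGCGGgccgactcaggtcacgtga
Igf2, chr7:142657497-142657746, minus strand: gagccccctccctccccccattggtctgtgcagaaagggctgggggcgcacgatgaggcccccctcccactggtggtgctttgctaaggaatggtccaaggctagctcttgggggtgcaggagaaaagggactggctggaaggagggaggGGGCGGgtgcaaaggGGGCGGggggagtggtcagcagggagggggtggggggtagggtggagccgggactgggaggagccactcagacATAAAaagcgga
Igfbp6, chr15:102143936-102144185, plus strand: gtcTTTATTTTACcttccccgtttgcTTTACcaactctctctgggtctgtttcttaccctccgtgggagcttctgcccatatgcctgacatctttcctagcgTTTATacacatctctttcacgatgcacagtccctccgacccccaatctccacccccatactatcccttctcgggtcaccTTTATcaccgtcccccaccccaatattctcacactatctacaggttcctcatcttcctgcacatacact

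The windows of Igf1r and Igf2r hold 0 matches to TTTAT or TTTAC. The GC box occurs at 2 places before Igf1r, beginning 43 and 26 bases before the start, and at 3 before Igf2r, of which 2 adjoin (31 and 25 bases before the start). Their GC content is 77.6% and 69.2%, against a median of 52.4% over 32841 windows of the same length. The Igfbp6 window holds TTTAT at 3 places and TTTAC at 2, has 0 GC boxes and a GC content of 49.6%, and the gene was not called. Igfbp7, not called either, has the GC box at 4 places, a GC content of 74.0% and 0 matches to TTTAT or TTTAC. GC boxes without CDX letters are thus not particular to the receptor genes. In the Igf2 window ATAAA begins 12 bases before the start and GGGCGG occurs at 2 places. Igfbp4, also not called, has ATAAA beginning 27 bases before its start, and a further Igf2 window, that of NM_001122736, has TTTAT beginning at position -152 from its start. The remaining window with such letters is 1 of Igfbp2, a gene without reads. Over all 14 windows of the 10 IGF genes, 5 hold TTTAT or TTTAC, beside 51.2% of all windows, and 6 hold GGGCGG, beside 32.7% of all. TTTAT alone is in 37.3% and TTTAC alone in 28.3% of all windows, and a match describes letters only.

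Airn, the long noncoding RNA that starts inside Igf2r on the opposite strand and is known to silence the paternal copy of Igf2r in cis, was lower as well. Its row with the highest level (NR_027784, chromosome 17, 12741311 to 12815557, plus strand) stood at 1.19 CPM without and 0.715 CPM with doxycycline, with a log2 fold change of -0.74 ± 0.20 (standard error; adjusted p 0.00249; values of the authors' deposited table). Another Airn row, NR_002853, was at -0.77 ± 0.21 (adjusted p 0.00215), while NR_027772 and NR_027773 were at -0.69 ± 0.37 and -0.50 ± 0.34 (adjusted p 0.254 and 0.451 as given in the authors' deposited table). These rows share a 5′ exon and are not replicates of each other. Airn spans 28396 bases of the Igf2r row, and in GENCODE M21 the annotated exons of the 2 genes share 0 bases. The sources used here do not say whether the counting used strand. In nuclear RNA, unspliced transcripts of either gene can cover exons of the other. The 2 falls may thus not be separate measurements, which was not tested. With widened standard errors the adjusted p of Airn was 0.815. Slc22a2 and Slc22a3, the other genes known to be silenced by Airn in placenta, are listed without reads.

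Igf2, the ligand of fetal growth, was the ligand gene with reads. The row with its highest level (NM_001122737, chromosome 7, 142650768 to 142657496, minus strand, protein coding) stood at 12.7 CPM without and 13.5 CPM with doxycycline. Its log2 fold change in the authors' deposited table was 0.083 ± 0.098 (standard error; adjusted p 0.834), and the 95% interval of the change runs from -7.31% to 21.0%. All 5 rows of Igf2 were slightly above 0, from 0.083 to 0.14, and 0 of them were called in the authors' deposited table.

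Igf2 is known to be transcribed from several start sites whose transcripts share their coding exons, and 4 of its rows differ only in the 5′ exon beside 3590 shared exon bases. The rows of NM_001122736 and NM_010514, with 5′ exons of 340 and 441 bases, have identical values in the authors' deposited table (12.6 CPM, about 577 counts), so these exons add the same number of reads to the shared ones. The row of NM_001315488, whose 5′ exon has 41 bases and starts farthest upstream at 142666816, lies 0.309 counts above them as a difference of geometric means. The row of NM_001122737, with a 5′ exon of 109 bases at the start site shown above, lies 20.4 counts above them. Of the 5′ exons in the 4 rows, the one that starts at 142657496 thus adds the most reads. A shorter form of the 3′ part (NM_001315489, which lacks 2167 of those exon bases) held 6.16 CPM, or 47.1% of the level of NM_001122737, and 4.02 against 3.53 CPM per kb of exon.

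Genes that neighbour or cross Igf2 were at or near 0. H19, the noncoding RNA imprinted opposite to Igf2, Ins2 and Mir483, which lies in an Igf2 intron, are listed without reads. The antisense RNA Igf2os held about 1 count per library (0.995), too few to test. Igf1, the ligand of postnatal growth, is listed without reads in all 3 of its rows (NM_010512, NM_001111276 and NM_001314010, chromosome 10, 87858265 to 87937047). At the geometric mean depth a count of 0 allows up to 3 counts, or 0.0656 CPM per library, which covers counting error only, and the same limit holds for each member without reads.

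Igfbp6, a binding protein that prefers IGF2 (NM_008344, chromosome 15, 102144186 to 102149512, plus strand), had a level of 160 CPM without and 154 CPM with doxycycline. Its log2 fold change in the authors' deposited table was -0.054 ± 0.063 (standard error; adjusted p 0.820), with a 95% interval of -11.5% to 4.85% for the change. Its sign turned once the trend of fold change with level was removed (0.013).

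Igfbp4, an inhibitory binding protein that the protease PAPP-A cleaves (NM_010517, chromosome 11, 99041244 to 99052655, plus strand), was at 56.0 CPM without and 49.7 CPM with doxycycline. Its log2 fold change in the authors' deposited table was -0.17 ± 0.068 (standard error; adjusted p 0.0732), and the 95% interval of the change was -19.1% to -2.57%. This gene lay near the threshold: with p adjusted over the genes tested only, the adjusted p was 0.0451.

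Igfbp7, a secreted matrix protein with low affinity for IGFs (NM_001159518, chromosome 5, 77349240 to 77408045, minus strand), was at 14.2 CPM without and 14.9 CPM with doxycycline. Its log2 fold change in the authors' deposited table was 0.075 ± 0.085 (standard error; adjusted p 0.816), with a 95% interval of -6.19% to 18.3%, and its other row, NM_008048, was at 0.079 ± 0.086. The 3′ end of Igfbp7 shares 85 exon bases with Polr2b on the opposite strand in GENCODE M21, so some reads may be counted in both.

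Igfbp2 (chromosome 1, 72824480 to 72852471), Igfbp3, the main IGF carrier of serum (chromosome 11, 7206091 to 7213923), and Igfbp5 (chromosome 1, 72858065 to 72874865) are listed without reads in the authors' deposited table. Igfbp2 and Igfbp5 are neighbours with 5593 bases between them. Igfbp3 lies 3544 bases from Igfbp1, which is also listed without reads. Both pairs of neighbouring binding protein genes were thus without reads.

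Per kilobase of exon, the level scale on which genes can be compared, Igfbp6 stood first at 123 CPM per kb as a mean over the libraries, above 98.4% of the genes tested. Igfbp4 followed at 25.3, Igf1r at 16.5, Igfbp7 at 12.1, Igf2 at 3.53 and Igf2r at 0.709 CPM per kb. The median over all genes tested was 5.86 CPM per kb, so the 3 binding proteins with reads and Igf1r lay above it and Igf2 and Igf2r below it. The closest neighbours in this order were Igf1r and Igfbp7, whose levels differed 1.36-fold, or by 0.45 ± 0.053 (standard error of the fit) on the log2 scale, so each neighbour in the order differed by more than the error of the fit. That error does not cover errors of exon length or of mapping. Igf2r had the lowest level of the 6 in both groups (0.856 and 0.587 CPM per kb).

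**Figure D2:**
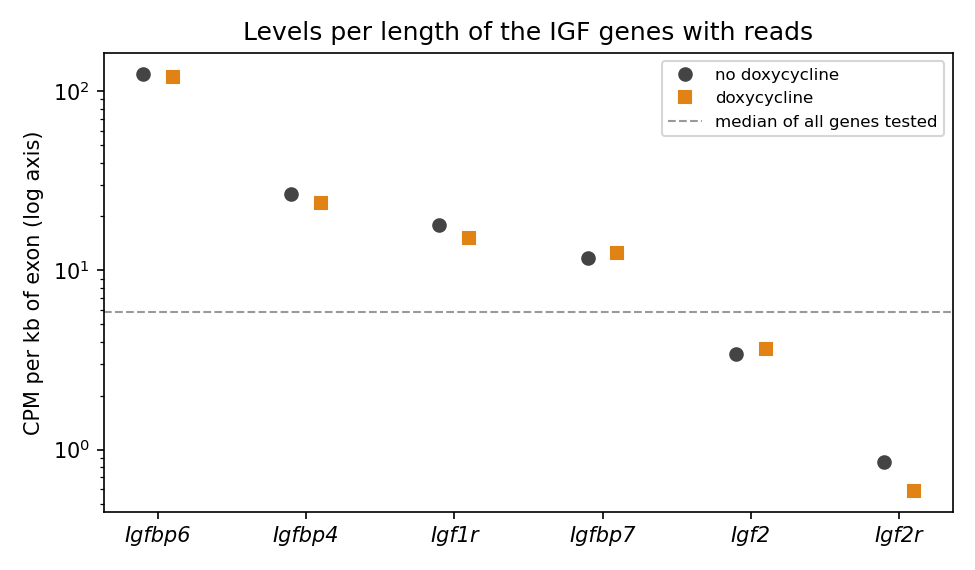
Level of each IGF gene with reads in CPM per kb of exon (y axis, log scale), without doxycycline (circles) and with it (squares), from the mean level and fold change of the authors' deposited table; no error is drawn. The order runs from Igfbp6 (123 as a mean) to Igf2r (0.709), and the dashed line is the median of all genes tested, 5.86.

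**Figure D3:**
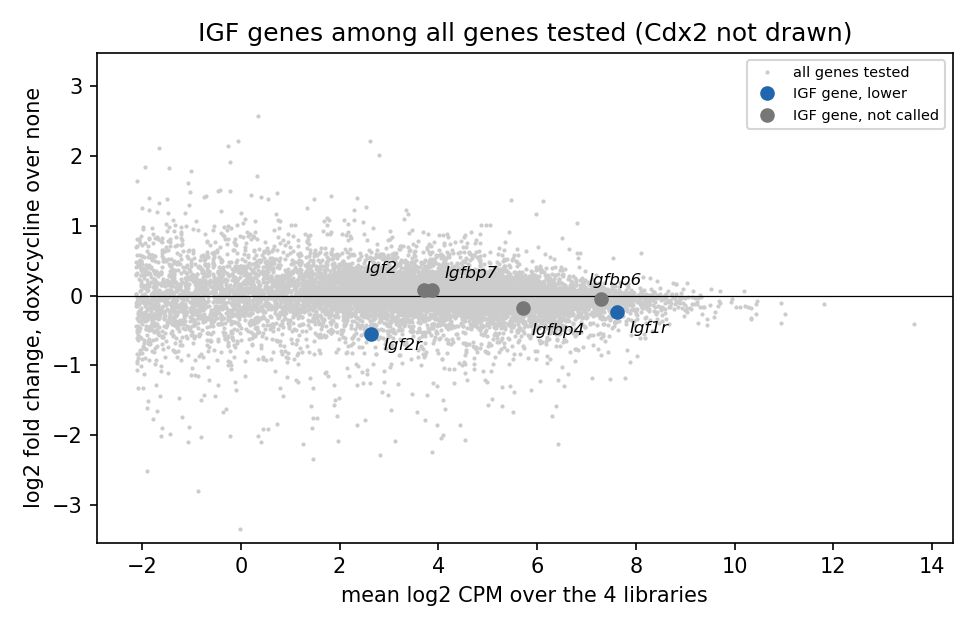
Log2 fold change (y axis) against mean log2 CPM over the 4 libraries (x axis) for all genes tested (light points, Cdx2 not drawn) and the 6 IGF genes with reads. Igf2r (-0.54) lies at a lower level than Igf1r (-0.24), and the IGF genes that were not called (dark grey) lie between -0.17 and 0.083.

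Around the ligands and receptors, 6 further lists hold 88 genes, of which 70 were tested, 5 were higher and 16 lower, beside 11.3% and 13.4% of all genes tested. Their median log2 fold change was -0.067, beside -0.0011 over all genes tested. Setting the median of 79 ribosomal protein genes to 0 instead gave 9 higher and 14 lower. In that setting 3242 of all 12355 genes tested were called, 1922 of them higher. With widened standard errors 1 was higher (Socs2) and 4 lower (Irs1, Socs1, Phlpp1 and Adamts1). There 517 of all genes tested were called, 170 of them higher.

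Adapters and negative regulators of the receptor held the largest changes of the 6 lists. Of 16 tested, 2 rose and 4 fell, with a median of -0.11, beside 11.3% higher and 13.4% lower over all genes tested. Irs1, the docking protein that couples IGF1R and the insulin receptor to PI3K, was at 130 CPM without and 56.2 CPM with doxycycline, a 2.31-fold fall (log2 fold change -1.21 ± 0.065, adjusted p 2.20e-73; values of the authors' deposited table). Its paralogue Irs2 was at -0.12 ± 0.072 and not called (adjusted p 0.347 as given in the authors' deposited table), and Irs4 is listed without reads. Shc1, the adapter to the MAP kinases, rose (0.35 ± 0.066, adjusted p 1.90e-06; values of the authors' deposited table). Of the suppressors of cytokine signalling, Socs1 (-1.42 ± 0.098) and Socs3 (-0.26 ± 0.070) fell and Socs2 rose (1.46 ± 0.19, from 1.01 to 2.77 CPM) in the authors' deposited table. Nedd4 fell as well (-0.16, adjusted p 0.0350 in the authors' deposited table). Grb10, an imprinted adapter that inhibits IGF1R and the insulin receptor, was at -0.067 ± 0.064 and not called (adjusted p 0.702 as given in the authors' deposited table).

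Among 31 genes of PI3K, AKT, mTOR and FOXO, all with reads and tested, 1 rose, 5 fell and 25 were not called, with a median of 0.0043. Over all genes tested, 11.3% were higher and 13.4% lower. Phlpp1, a phosphatase that acts on AKT, fell from 55.2 to 32.3 CPM (-0.77 ± 0.070, adjusted p 2.00e-26; values of the authors' deposited table). The PI3K subunit genes Pik3r1 (regulatory, -0.45 ± 0.069) and Pik3cb (catalytic, -0.32 ± 0.068) fell, as did Pik3ip1, an inhibitor of PI3K (-0.72 ± 0.15), in the authors' deposited table. The gene of this list that rose was Pik3r3, another regulatory subunit (0.50 ± 0.12, from 3.55 to 5.00 CPM; adjusted p 0.000531 in the authors' deposited table). Rptor was the remaining gene of this list that fell (-0.19, adjusted p 0.0297 in the authors' deposited table). Akt1, Akt2 and Mtor were not called, with log2 fold changes of -0.095, 0.053 and -0.0039 in the authors' deposited table.

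Of 9 tested proteases of the binding proteins and their inhibitors, 5 fell and 0 rose, with a median of -0.40. The shares over all genes tested were 13.4% lower and 11.3% higher. The list mixes proteases with stanniocalcin inhibitors. The metalloprotease genes Adamts1 (-0.68 ± 0.070) and Mmp2 (-0.25 ± 0.062) and the serine protease gene Htra1 (-0.91 ± 0.14) fell in the authors' deposited table, and so did Stc2, an inhibitor of PAPP-A (-0.61 ± 0.097, from 10.5 to 6.88 CPM). Plau, the remaining gene of this list that fell, was at -0.50 ± 0.12. Pappa itself, which encodes PAPP-A, was at -0.40 ± 0.29 and not called (adjusted p 0.506), and Pappa2 and Stc1 are listed without reads in the authors' deposited table.

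Of the 8 further genes of the family, 5 are listed without reads and 2 were tested, with 0 called, beside 24.7% of all genes tested. The insulin receptor gene Insr was at -0.039 ± 0.069 (adjusted p 0.873 as given in the authors' deposited table). Of 7 tested genes of imprinting at Igf2 and Igf2r and of Igf2 mRNA binding, Zfp57, a zinc finger factor that maintains imprints, rose (0.51 ± 0.082, from 9.85 to 14.0 CPM) and Airn fell in the authors' deposited table. The Igf2 mRNA-binding genes Igf2bp1, Igf2bp2 and Igf2bp3 were not called (-0.12, -0.037 and -0.067) in the authors' deposited table. Of 6 tested genes for matrix proteins with an IGFBP-like domain, Ccn1 rose (0.38 ± 0.064), and Ccn2 (-0.43 ± 0.11) and Htra1 fell, in the authors' deposited table. Htra1 is also on the list of proteases. For this list and that of imprinting genes, the shares over all genes tested were 11.3% higher and 13.4% lower.

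**Figure D4:**
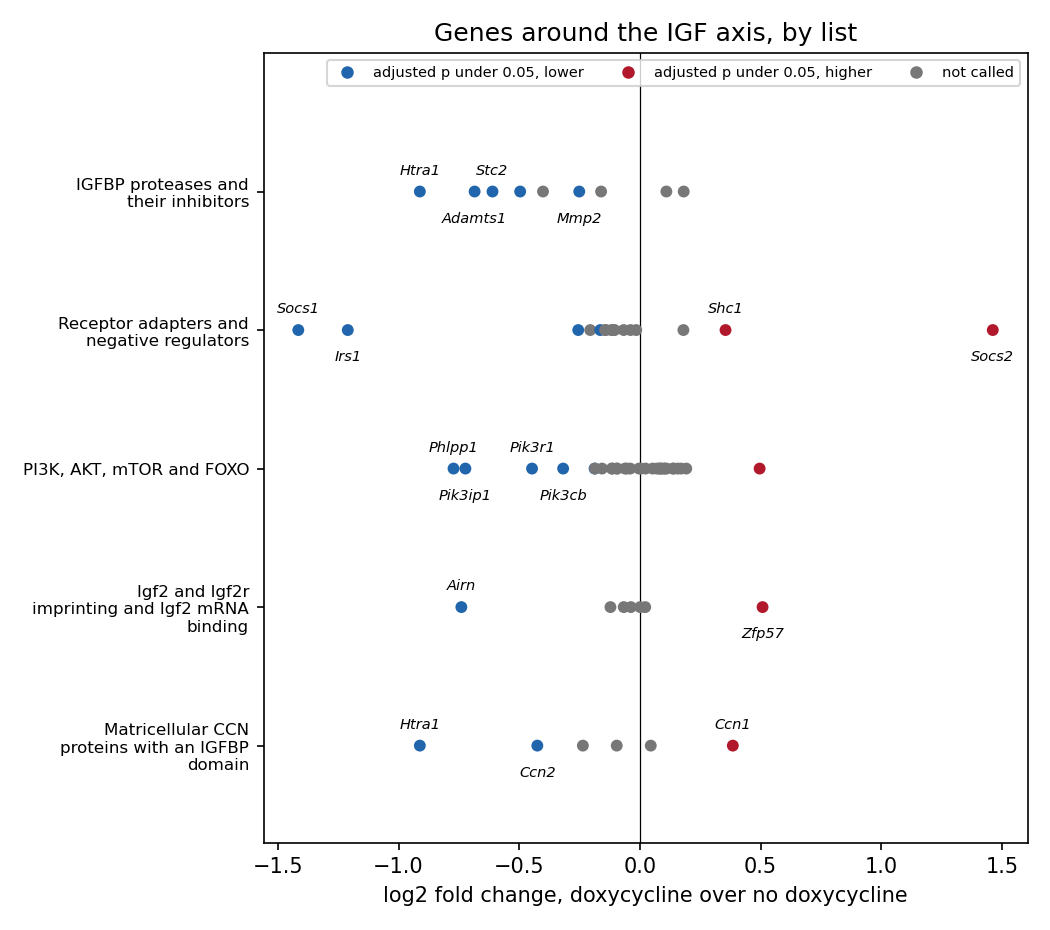
Log2 fold change (x axis) of the genes tested in the 5 lists that held called genes (y axis), 1 point per gene, blue where lower, red where higher and grey where not called. Irs1 (-1.21) and Socs1 (-1.42) lie far left in the list of adapters, and Socs2 (1.46) far right; the list of PI3K, AKT, mTOR and FOXO genes lies mostly near 0.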

How the data were processed

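Nuclear RNA was measured in 4 libraries, grouped by the sample titles. Per the submitters' processing notes, STAR 2.7.1a, SAMtools 1.10, Picard, HOMER 4.10, edgeR, limma and the build mm10 were used, with no role or order given. The authors' deposited table has, per the file headers, limma's usual columns per RefSeq transcript, namely the log2 fold change, the log2 mean level, the t score, and p-values before and after adjustment. Its other numeric columns, as deposited, are the start, end and exon length in bases, and the log odds score B and Copies, which were not used. The table holds no values per library, so the count model that would suit counts was not run and the authors' test took its place.

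The transcript with the highest mean level stands for a gene. The standard error is the log2 fold change divided by t, and 95% intervals assume normal errors. The p-values equal those of a normal distribution at t to within 7.12e-06, and the standard errors (median 0.080 on the log2 scale, quartiles 0.069 and 0.12) lay within a factor of 1.1 of the running median over 501 genes of like level for 97.9% of genes tested. The ratio ran from 0.728 to 1.48 and was 1.16 for Igf2, so the errors follow level closely but not fully. Group levels are the mean log2 CPM minus and plus 0.5 times the fold change, and counts are geometric means with 0.5 added. The effective library was 1.16-fold larger with doxycycline. Coordinates are those of the file (mm10), and exons are those of GENCODE M21. RefSeq windows before start sites (GRCm38.p6) matched all 10 members. The members and gene lists were chosen with earlier results of these data known; the text names all members, Cdx2 and up to 4 called genes per list with the smallest p, and other genes were named after their values were seen. The GC box was added after seeing the windows. The adjustment of p was tested on simulated data. The formula for group levels holds by arithmetic where groups are of equal size, so the simulation could not test it. Computation used Python 3.11.15, pandas 2.3.3, numpy 2.4.6, scipy 1.17.1 and matplotlib 3.10.9. Alternatives were the longest transcript, count floors of 0 and 50, 2 other scalings, removal of the trend with level, widened standard errors and other adjustments of p.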

Additional observations from a re-analysis of the deposited data

How the results depend on the processing

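The counts of 2 lower and 0 higher among the IGF genes were 2 and 0 too with the longest transcript per gene, with no filter on counts, with a floor of 50 counts, with the median of ribosomal protein genes or of all genes tested at 0, and, in an alternative chosen after seeing the data, with p adjusted over the rows used here. With p adjusted over the genes tested, 3 were lower, Igfbp4 among them. With the trend with level removed 1 IGF gene was lower (Igf2r), and with standard errors widened 0 were; the cause was not tested. Igfbp6 reversed to 0.013 with the trend removed. Pathway genes higher numbered 9 with ribosomal protein genes at 0, and 1 with standard errors widened, where 4 were lower. With a floor of 50 counts Airn was not tested, and 15 pathway genes were lower. Over all genes tested, 517 were called with widened standard errors (170 higher), against 3047 (1393 higher) as reported; with ribosomal protein genes at 0 the share of rises was 59.3% against 45.7%. No paired analysis was possible because the table holds no values per library. For the same reason leaving out single libraries and the comparison of count models were not run. Depth limits what can be said of Igf1, Igfbp2, Igfbp3 and Igfbp5.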

Other observations

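Of 13 other genes that overlap or lie within 20 kb of the IGF genes, 4 had no reads, 4 lay under the floor of 10 counts and 5 were tested. Of these 5, 2 were called, Airn (described above) and Top2a, or 40.0% beside 24.7% of all genes tested. Top2a, the topoisomerase gene 17054 bases from Igfbp4, stood at 425 CPM without and 475 CPM with doxycycline and rose by 0.16 ± 0.059 (log2, standard error; adjusted p 0.0412) in the authors' deposited table. Spryd3 beside Igfbp6 was at 0.20 ± 0.076 (adjusted p 0.0584), Tns4 beside Igfbp4 at -0.41 ± 0.22 (adjusted p 0.251) and Polr2b beside Igfbp7 at -0.14 ± 0.066 (adjusted p 0.150 as given in the authors' deposited table). Soat2, which begins 1062 bases after Igfbp6 and encodes a cholesterol acyltransferase, held about 6.49 counts per library, and Pgpep1l beside Igf1r about 1.33, both under the floor.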
